A study of Mus musculus with 18 samples.

Results

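Whole lungs of mouse embryos that lacked Rptor in the epithelium were compared with control lungs by bulk RNA-seq, at an embryonic age of 14.5 dpc (days post coitus). The comparison comprised the 3 Rptor-deficient and the 3 control lungs of the Rptor line, which were 6 of the 18 samples of the series, chosen by their labelled line and genotype. The deficient lungs carried 2 floxed Rptor alleles and 1 Shh-Cre allele (Rptorf/f; ShhCre/+). The controls carried the same Cre allele with 1 floxed and 1 wild-type Rptor allele (Rptorf/+; ShhCre/+) by their labels, which would leave 1 working Rptor allele where Cre was active, although the study in 1 place names its controls by the Cre allele alone. Shh-Cre is a knock-in into the Sonic hedgehog locus, which is active broadly in the lung epithelium and not in the mesenchyme, endothelium or blood cells that made up the rest of each sample. The study asked which genes act downstream of mTOR complex 1 (mTORC1) when the airways branch.

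Rptor encodes Raptor, the subunit that recruits substrates to mTORC1. This kinase complex responds to growth factors and amino acids and promotes protein synthesis, ribosome production, lipid and nucleotide synthesis and mitochondrial function, and it restrains autophagy. In the embryonic lung an epithelial tree branches into surrounding mesenchyme. Cells that express Sox9 at the distal tips are the progenitors, and cells left behind in the stalks turn on Sox2 and form the conducting airways, which acquire secretory, multiciliated, basal and neuroendocrine cells. Distal cells later form alveolar type 1 and type 2 cells, which carry out gas exchange and make surfactant.

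Each lung had between 28836234 and 29611064 normalised reads over 23420 genes, which corresponded to between 29037468 and 29704748 whole reads. Of these genes, 14940 had a value of at least 10 in at least 3 lungs and were tested. The first principal component held 57.5% of the variance and separated the genotypes, and deficient lung 1 lay apart from the others of its group on the second, which held 16.5%. Lungs of either sex were present in both groups, as judged from the reads of Xist and Ddx3y. A total of 2483 genes (16.6%) rose and 2719 (18.2%) fell in Rptor-deficient lungs (limma, Benjamini-Hochberg adjusted p below 0.05), with a median log2 fold change of 0.01 over the genes tested. The groups did not overlap for 7519 genes (50.3%). Genes of low level leaned upward. The median log2 fold change was 0.18 in the tenth of genes with the lowest mean and -0.07 in the tenth with the highest, which is the background against which small shifts of a gene list have to be read.

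Rptor itself (chromosome 11, 119602905 to 119899576 on the plus strand, GRCm38) had 2298, 2224 and 2197 normalised reads in control lungs and 2442, 1986 and 2020 in deficient lungs. The groups overlapped, and the log2 fold change of -0.07 (SE 0.083) did not pass the threshold (limma adjusted p = 0.570). Without deficient lung 1 the fold change was -0.16 and passed (limma adjusted p = 0.0435). A value summed over the whole gene in a whole lung does not resolve the floxed part of the transcript or the epithelial cells, so that it does not check the genotype.

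Genes shared by all lung epithelial cells fell together. All 30 measured genes of a pan-epithelial list were lower in Rptor-deficient lungs, with no overlap between groups and a median log2 fold change of -1.02, against 18.2% lower among all genes tested. Their summed level was 50120 to 50910 in controls and 21200 to 28040 in deficient lungs. Epcam, an adhesion molecule of epithelial cells, had 5868, 5022 and 5964 normalised reads in controls and 2858, 3101 and 3980 in deficient lungs (log2 fold change -0.77, SE 0.12; limma adjusted p = 0.00199). Nkx2-1, the transcription factor that marks lung identity, had 4526, 4616 and 4571 against 2092, 2659 and 2900 (log2 fold change -0.85). Cdh1, which encodes E-cadherin, had 5678, 5688 and 5215 against 1267, 1639 and 1600 and fell further than the others (log2 fold change -1.89, SE 0.098). In bulk tissue, fewer cells of a type and less RNA per cell cannot be told apart. Because values are relative within a lung, a smaller share of epithelial RNA and a larger share of RNA from other cells cannot be told apart either.

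The mean log2 level of Epcam, Cdh1 and Nkx2-1 served as an epithelial reference, against which the size of each fall was set. The reference was lower in every deficient lung than in every control lung, with a log2 fold change of -1.17 (2.25-fold lower). An exact two-sided permutation test of 3 against 3 lungs gave p = 0.1, which is the smallest that it can give. After subtraction of the reference in each lung, 114 genes (0.763% of those tested) were lower in deficient lungs than the reference and also lower before subtraction (limma adjusted p below 0.05 in both fits). Cdh1, itself 1 of the 3 reference genes, is counted among them. The 3 reference genes did not fall alike, and the choice among them mattered. With Epcam alone as the reference 215 genes fell further, with Nkx2-1 alone 197, and with Cdh1 alone 37. The mean of the whole pan-epithelial list gave 128 genes, which included all 114.

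Of these 114 genes, 24 fell further than the reference under every one of 16 alternative settings, among them Sox2, Scgb3a2, Cyp2f2 and Aldh1a7 of the conducting airways. Sox2, the transcription factor of the conducting airways, had 307, 444 and 506 normalised reads in controls and 38.8, 71.3 and 38.5 in deficient lungs. Sox2 thus fell by 3.09 on the log2 scale (SE 0.27; limma adjusted p = 1.64e-04), and its difference from the reference was -1.91. Scgb3a2, a secretoglobin of airway secretory cells, had 232, 264 and 236 in controls and 6.12, 27.7 and 2.97 in deficient lungs (log2 fold change -4.71, SE 0.60). Cyp2f2, a cytochrome P450 of club cells, had 91.8, 161 and 57.7 in controls, and a single read was counted in each deficient lung. This was 311 reads against 3, a ratio of 102 with an exact 95% interval of 34.8 to 500, which covers counting error only. Aldh1a7, an aldehyde dehydrogenase, had 4168, 3798 and 3612 against 307, 451 and 393 (log2 fold change -3.34, SE 0.13). None of these 4 genes overlapped between groups.

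Airway secretory genes were the list with the deepest fall. Of 8 tested members 7 fell and 6 fell beyond the reference, with a median log2 fold change of -3.21. Spdef, a factor of mucous cells, was the exception at low values (log2 fold change 0.56; limma adjusted p = 0.213), and another 8 listed genes, among them Scgb1a1, did not reach the filter in lungs of this age. The other cell types of the conducting airways showed no common fall. Among 7 tested neuroendocrine genes 2 fell, each beyond the reference. Of these Insm1, a factor of these cells, fell by 2.19 on the log2 scale, and beyond the reference in 9 of the 16 alternative settings. Cacna1a rose by 0.39 (which did not pass without control lung 1, control lung 2 or any 1 of the deficient lungs) and 4 genes did not pass. Among 5 basal cell genes, Krt15 fell beyond the reference (log2 fold change -2.05, kept in 13 of 16 settings) and Krt17 rose (1.73). Trp63, the defining factor of basal cells, had 25.9, 48.0 and 26.9 against 31.6, 85.2 and 58.3 and did not pass (limma adjusted p = 0.172; 0.0424 when replicate numbers entered as a block, and 0.0265 without deficient lung 1). Among 11 tested multiciliated genes, Ccno (log2 fold change -1.41) and Tppp3 (-0.30) fell, of which Tppp3 did not pass without control lung 1, control lung 3 or any deficient lung, and Foxj1, the factor that drives ciliogenesis, had 39.9, 41.0 and 44.8 against 16.3, 31.7 and 25.7, which did not pass (limma adjusted p = 0.0514; 0.0434 with the block).

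**Figure D1:**
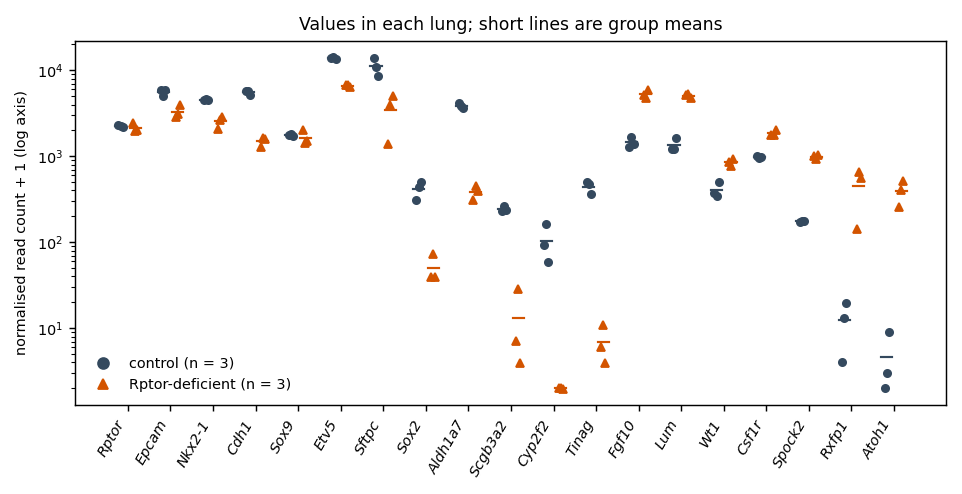
Normalised read counts plus 1 on a log axis for 19 genes in the 3 control lungs (circles) and the 3 Rptor-deficient lungs (triangles), with short lines at the group means. Rptor and Sox9 overlap between groups, Epcam, Nkx2-1 and Cdh1 are lower in deficient lungs, Sox2 and the airway secretory genes are lower still, and the genes from Fgf10 to Atoh1 are higher.

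The 10 largest falls among genes with a mean of at least 50 were also the 10 furthest below the reference, since the subtraction shifts all genes by the same amount. Besides Cyp2f2 and Scgb3a2 they comprised Tinag, Cckar, Cym, Gpx2, Cldn10, Akr1c19, Aqp4 and Elf5. Tinag, which encodes a secreted matrix protein (chromosome 9, 76951693 to 77045794 on the minus strand), had 495, 475 and 360 normalised reads in controls and 5.10, 9.90 and 2.97 in deficient lungs, the largest fall of the comparison (log2 fold change -6.10, SE 0.35; limma adjusted p = 2.45e-05). Cckar, the cholecystokinin A receptor, had 1516, 1352 and 1415 against 60.2, 58.4 and 114. Cym, an aspartic protease, had 2176, 1127 and 1477 against 46.9, 106 and 158. Gpx2, an epithelial glutathione peroxidase, had 481, 298 and 304 against 24.5, 19.8 and 20.8. Elf5, an ETS factor of the distal epithelium, had 491, 341 and 221 against 34.7, 44.6 and 20.8. The absence of overlap was a condition of the choice, and the spread among controls was smaller than the difference in each. Most of the 114 genes, 88, were in none of the 64 lists. Among these, and chosen after their values were seen, were the Iroquois factors Irx1 (mean 2850 in controls and 737 in deficient lungs) and Irx2 (2263 and 631).

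Genes of the distal epithelium did not move as one. Of 17 tested genes of the distal tip, 7 rose and 7 fell, none beyond the reference, and the median log2 fold change was -0.11. Sox9 had 1762, 1823 and 1701 normalised reads in controls and 2010, 1416 and 1522 in deficient lungs, overlapping between groups (log2 fold change -0.11, SE 0.12; limma adjusted p = 0.495). Relative to the reference it was higher by 1.06, although whole-lung values do not resolve which cells held its reads. Deficient lung 1 had the highest Sox9 value of the 6, and without it Sox9 fell (log2 fold change -0.26; limma adjusted p = 0.012). Etv5, a target of Fgf signalling in the tip, had 13930, 14170 and 13560 against 6703, 6798 and 6358. Its log2 fold change of -1.07 differed from the reference by 0.10, which did not pass the threshold (limma adjusted p = 0.523). Wnt7b also fell (-0.78), whereas Gata6 rose (0.72), as did Dusp6 (0.69) and Bmp4 (0.63), which are also expressed outside the epithelium.

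Alveolar genes, which are at an early stage at this age, mostly fell. Of 13 tested genes of alveolar type 2 cells 7 fell, 4 of them beyond the reference, and 1 rose (Cebpa, log2 fold change 0.65). Sftpc, which encodes surfactant protein C, had 14010, 11010 and 8661 in controls and 1393, 3940 and 5040 in deficient lungs (log2 fold change -1.86, SE 0.41; limma adjusted p = 0.00931), with the lowest value in deficient lung 1. Muc1, a transmembrane mucin, had 1074, 1254 and 1050 against 66.3, 137 and 158 (log2 fold change -3.30), and Lamp3 (-2.50) and Sfta2 (-2.13) fell. Sftpb (log2 fold change -0.12) and Abca3 (-0.16), further surfactant genes, did not pass. Of 15 tested genes of alveolar type 1 cells 8 fell, none beyond the reference. Hopx had 415, 469 and 413 against 157, 215 and 221 (log2 fold change -1.14), Cldn18 fell by 1.29, and Pdpn did not pass (limma adjusted p = 0.0769). Spock2, a secreted proteoglycan on this list, moved against the others and had 172, 175 and 178 in controls and 1013, 920 and 1041 in deficient lungs (log2 fold change 2.49, SE 0.088; limma adjusted p = 1.23e-05).

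Genes for contacts between epithelial cells and for fluid transport fell. Of 29 tested genes of tight junctions and polarity 21 fell, with a median log2 fold change of -0.71, and Tjp3 was the member that fell beyond the reference (-1.86). Pkp3 (-1.39), a desmosomal plaque protein, and Cldn6 (-1.34) fell to about the level of the reference, while Tjp1 (-0.05), Pard3 (0.06) and F11r (0.00), which other cells also express, did not pass. The desmosomal cadherin Dsc2 went the other way, from 77.8, 86.9 and 117 in controls to 423, 326 and 311 in deficient lungs (log2 fold change 1.91). Of 15 tested genes of ion and fluid transport 9 fell, and Aqp4 (-3.38), a water channel, Cftr (-2.59), the apical chloride channel, and Scnn1b (-2.14), a subunit of the sodium channel, did so beyond the reference. Basement membrane genes split, with 8 higher and 8 lower of 27. The laminin chains Lamb3 (log2 fold change -2.03) and Lama3 (-0.93) fell, while Npnt (1.24), an integrin ligand, and Itgb4 (1.06) rose. The number of lower basement membrane genes was 4 to 5 without control lung 1, control lung 2, deficient lung 2 or deficient lung 3.

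**Figure D2:**
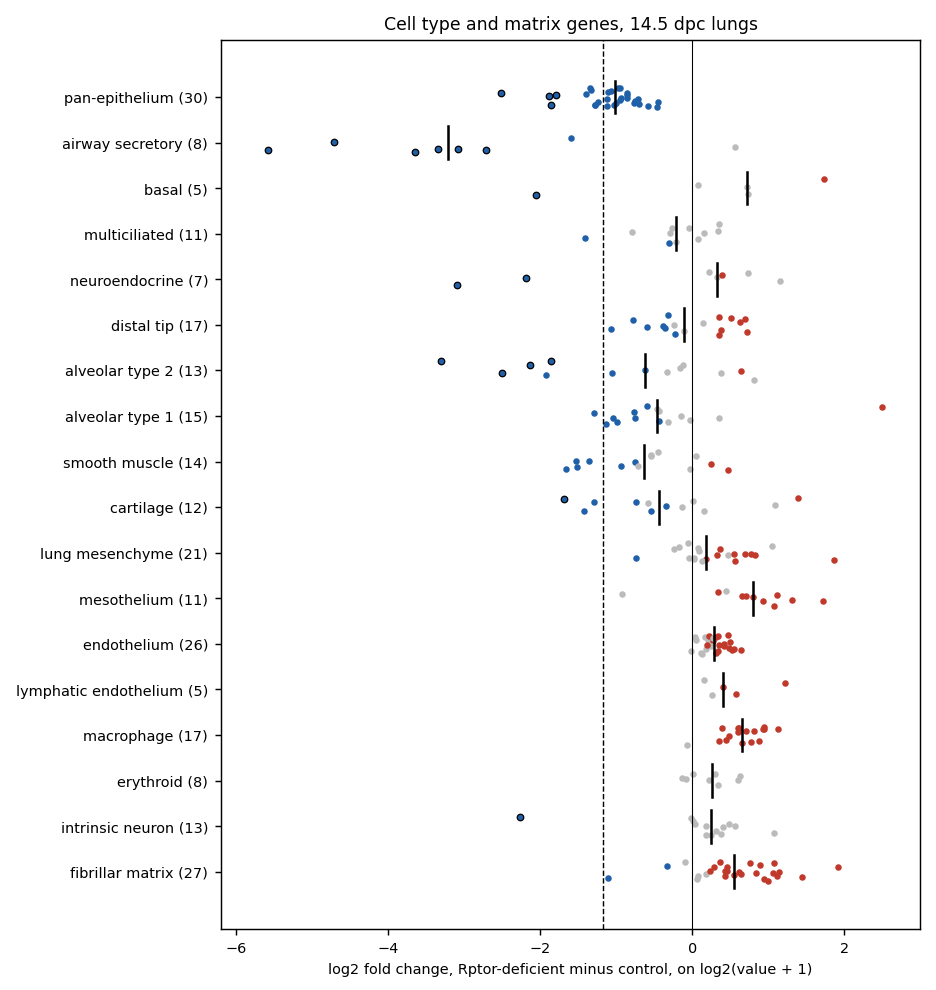
Log2 fold change (Rptor-deficient minus control, on log2(value + 1)) of every tested gene in 18 lists, with the number tested in brackets. Red and blue points passed the test as higher or lower, grey points did not pass, black outlines mark genes lower than the epithelial reference, short vertical lines are list medians, and the dashed line is the fall of the reference at -1.17. Pan-epithelial genes gather around the dashed line, airway secretory genes lie to its left, and mesothelial, macrophage and fibrillar matrix genes lie to the right of 0.

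Genes of the supporting tissues around the airways fell in part. Of 14 tested smooth muscle genes 6 fell and 2 rose (9 and 2 with the replicate block, and 8 and 0 without deficient lung 1). Myh11, the smooth muscle myosin heavy chain, had 3955, 2741 and 2747 normalised reads in controls and 1568, 1370 and 598 in deficient lungs (log2 fold change -1.51, SE 0.32; limma adjusted p = 0.00807), and Cnn1 (-1.66), Actg2 (-1.53) and Myocd (-0.94), the coactivator that drives the smooth muscle program, fell with it. Acta2, which encodes smooth muscle actin, rose instead, from 13690, 10380 and 12900 to 21500, 14790 and 15270 (log2 fold change 0.47; limma adjusted p = 0.0410), and missed the threshold in 3 of the 6 fits that each left out a lung (adjusted p up to 0.145). Without control lung 1, 3 smooth muscle genes were lower, Cnn1 and Actg2 no longer among them. Of 12 tested cartilage genes 6 fell, among them Col2a1, the main collagen of cartilage, with 2838, 2112 and 2715 against 1149, 914 and 794 (log2 fold change -1.43), and Matn4 (-1.69). Col9a2 rose (log2 fold change 1.39), although its partner chains Col9a1 (-0.35) and Col9a3 (-0.74) fell.

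Genes of mesenchyme and matrix that passed mostly rose. Of 21 tested genes of lung mesenchyme 9 rose and 1 fell (2 with the block and 3 without deficient lung 1), with a median log2 fold change of 0.18, which was also the median of the genes of lowest level. Fgf10, the mesenchymal growth factor that directs branching (chromosome 13, 118669791 to 118792115 on the plus strand), had 1294, 1667 and 1401 in controls and 5198, 4774 and 5960 in deficient lungs (log2 fold change 1.87, SE 0.11; limma adjusted p = 2.51e-05). Tcf21 (0.77) and Pdgfra (0.69) rose, Foxf2 fell (-0.73), and Tbx4, with 7389, 7367 and 7318 against 7749, 6960 and 6834, did not pass. Genes of fibrillar matrix rose with a median of 0.55, with 21 higher and 2 lower of 27. Lum had 1207, 1207 and 1651 against 5133, 5294 and 4795 (log2 fold change 1.92), and Dcn (1.44) and Col1a1 (1.14) rose, while Tnc, a matrix glycoprotein, fell (-1.11). The 27 matrix genes summed to 397600 to 439900 in controls and to 690400 to 728800 in deficient lungs. Against these counts stood 16.6% higher among all genes tested.

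The mesothelium, endothelium and macrophages gave the same direction. Of 11 tested mesothelial genes 9 rose (median log2 fold change 0.80), including Wt1, with 373, 343 and 501 in controls against 847, 769 and 927, and Calb2 (1.72). Msln did not pass (log2 fold change -0.93). With the replicate block 1 mesothelial gene was lower, and Msln was the 1 gene of the list with a negative fold change. Of 26 endothelial genes 16 rose and none fell (median 0.29). Pecam1 had 7092, 6579 and 6563 against 8445, 8155 and 9014 (log2 fold change 0.34), and Ptprb rose by 0.64. Of 17 macrophage genes 16 rose (median 0.66), among them Csf1r, the receptor for colony stimulating factor, with 998, 957 and 985 against 1770, 1787 and 2041 (log2 fold change 0.93, SE 0.072), and C1qa (1.12). Without control lung 2, 10 of these macrophage genes passed. Of 5 lymphatic genes 3 rose, Reln most (1.21). None of 8 tested erythroid genes passed the test, against 2 that rose with the block, of which 1 was Alas2 of haem synthesis (limma adjusted p = 0.0143 with the block), whose groups overlapped.

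Neurons and glia are part of the lung, and liver, heart, skeletal muscle, thymus and thyroid lie near it and could have been dissected with it. Of 13 tested genes of intrinsic neurons Ret fell beyond the reference from 220, 238 and 242 to 38.8, 53.5 and 52.4 (log2 fold change -2.26) and the other 12 did not pass. In the glial list Erbb3, a gene that epithelial cells also express, fell from 2080, 1988 and 2003 to 1103, 1074 and 1118 (-0.88), and Sox10 did not pass. The liver gene Afp rose from 75.8, 65.9 and 92.5 to 136, 144 and 485 (log2 fold change 1.44; not past the threshold without any 1 of the control lungs), whereas Alb, with 40.9, 30.0 and 69.6 against 31.6, 12.9 and 170, overlapped. The heart gene Myh6 (216, 301 and 853 against 448, 828 and 349) overlapped as well, and Myh7 was the 1 of 5 heart genes that rose (1.35). Of 5 skeletal muscle genes Ckm (-1.89) and Mylpf (-0.87) fell and Tnnt3 rose (1.08), and Mylpf did not pass without control lung 1, control lung 2 or deficient lung 2. Myog of skeletal muscle and Rag1 of thymocytes stayed under the filter. The thymocyte list's 1 tested gene, Cd4, rose from 12.0, 10.99 and 7.96 to 15.3, 27.7 and 33.6 (log2 fold change 1.18). It lost its call in at least 1 of the fits that each left out a lung. Tg of the thyroid had 7.98 to 14.9 in controls and 8.89 to 19.4 in deficient lungs. The part of such tissue in other results was not tested.

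The counts of signalling genes are to be read against 16.6% higher and 18.2% lower among all genes tested, and several lay near these shares. For Hedgehog signalling, in which epithelial Shh acts on the mesenchyme, 4 of 12 tested genes rose and 3 fell (1 without control lung 1, control lung 2 or deficient lung 3). With the replicate block 6 rose and 4 fell, and without deficient lung 1 4 fell. The ligand Shh had 1256, 1266 and 1207 against 990, 1123 and 1065 (log2 fold change -0.23, SE 0.069). Every lung compared carried the Shh-Cre allele, and the study uses embryos homozygous for it as Shh mutants. Both groups therefore had a single unaltered Shh allele. Among the targets of Shh, Hhip fell (-0.36), and Ptch1 (-0.31; limma adjusted p = 0.0685) and Gli1 (-0.12; limma adjusted p = 0.414) did not pass. At least 1 of Ptch1 and Gli1 passed with the block, under which 4 of the 5 genes with a negative fold change fell. The coreceptors Gas1 (0.86), Cdon (0.64) and Boc (0.62) rose. Of 17 Fgf pathway genes 6 rose and 3 fell, with Fgfr1 of the mesenchyme higher (0.72) and Fgfr2, the epithelial receptor for Fgf10, lower (-0.32).

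Wnt pathway genes moved in both directions. Of 26 tested genes 7 rose and 9 fell. The R-spondins Rspo3 (log2 fold change 1.49) and Rspo2 (1.28) and the ligand Wnt2b (0.93) rose, while the ligand Wnt7b fell (-0.78). The receptors of R-spondins, Lgr5, with 132, 134 and 133 against 54.0, 60.4 and 56.3 (-1.21), and Lgr6 (-1.09) fell, as did the targets Lef1 (-0.67) and Axin2 (-0.41). Of 20 BMP pathway genes 10 rose, both ligands (Bmp4, 0.63) and antagonists (Bmper, 1.07, and Nog, 0.89), and 1 fell. This number of higher BMP genes was 4 without control lung 1, 6 without control lung 2 and 5 without deficient lung 3. Of 13 retinoic acid genes 5 rose and 2 fell, with a median of 0.46. Aldh1a1, a synthetic enzyme, fell beyond the reference from 569, 588 and 539 to 113, 89.1 and 124 (-2.38), while Aldh1a2, the enzyme of the mesothelium and mesenchyme, rose (0.77). Of 16 Notch pathway genes 6 rose, the ligand Dll3 most (2.40) and the receptors Notch2 (0.31) and Notch3 (0.28) and the ligands Dll4 (0.35) and Jag2 (0.26) by small amounts, and the number was 1 to 3 without control lung 1, 2 or 3 or deficient lung 3. The target Nrarp did not pass with the block (limma adjusted p = 0.0515). Of 16 genes of Igf and insulin signalling 7 rose, the growth factor Igf2 (0.36) and the binding proteins Igfbp5 (0.80) and Igfbp6 (0.81) among them, and Igfbp2 fell (-0.76).

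The 10 largest rises were taken among genes that averaged 50 normalised reads or more and whose groups did not overlap. Atoh1, a basic helix-loop-helix factor of sensory hair cells and intestinal secretory cells (chromosome 6, 64729125 to 64731245 on the plus strand), went from 1.0, 2.0 and 8.0 normalised reads in controls to 256, 409 and 513 in deficient lungs (log2 fold change 6.65, SE 0.52; limma adjusted p = 9.20e-05). Of the other 4 tested genes of its list, Dll3, a Notch ligand, rose from 5.0, 12.0 and 15.9 to 45.9, 36.6 and 109, and Insm1 fell, and its partners Pou4f3 and Barhl2 were at 0 in all 6 lungs. Rxfp1, the relaxin receptor, had 2.99, 12.0 and 18.9 against 140, 651 and 556, with the lowest deficient value in lung 1. Angptl7, a secreted angiopoietin-like protein, had 11, 7.0 and 39.8 against 152, 345 and 308. C7, a complement component, had 18.9, 14.0 and 17.9 against 137, 141 and 159. The others were Dmrt2 (log2 fold change 3.23), Chst8 (2.71), Fam5b (2.52), Spock2 (2.49), Rgs4 (2.46) and the desmosomal cadherin Dsc3 (2.46).

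Of 753 metabolic and growth genes in 29 lists 2 fell beyond the epithelial reference, beside 0.763% of all genes tested. They were the glutathione peroxidase Gpx2 and Cps1, which makes carbamoyl phosphate in mitochondria (219, 260 and 277 against 51.0, 63.4 and 30.6; log2 fold change -2.41). In a whole lung, a gene that other cells also express may be unable to fall beyond an epithelial reference through the epithelium alone. The small count therefore does not describe these genes in epithelial cells. In 9 of the 29 lists at least 50 percent of the tested genes fell, and in none did that share rise. Genes for mTOR complexes and their regulators mostly did not pass, with 1 higher and 4 lower of 35 (3 and 7 with the replicate block, and 1 to 2 lower without control lung 1, 2 or 3 or deficient lung 2). The lower ones included Rps6kb1, the S6 kinase (log2 fold change -0.27), and Rragd, a Rag GTPase (-0.37), which did not pass when any 1 of the 6 lungs was left out, and the higher one was Sesn1, an inhibitor of the pathway (0.45). Mtor (-0.07) and Rictor (0.01) did not pass.

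Enzymes that make serine and one-carbon units fell. Of 16 tested genes 9 fell and 2 rose, with a median log2 fold change of -0.35. Psat1, which makes phosphoserine (chromosome 19, 15904678 to 15947337 on the minus strand), had 10240, 10200 and 9722 normalised reads in controls and 5019, 5426 and 5305 in deficient lungs (log2 fold change -0.94, SE 0.052; limma adjusted p = 2.35e-05). Mthfd2, the mitochondrial folate enzyme, had 1334, 1372 and 1246 against 636, 689 and 651 (-0.998, SE 0.070). Phgdh (-0.69) and Mthfd1 (-0.62) fell as well, and Aldh1l2 (0.40) was 1 of the 2 that rose, of which none remained without control lung 1. These falls were of a size with the reference or smaller (Mthfd2 relative to the reference 0.17; limma adjusted p = 0.261), although other cells of the lung also express the genes.

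Genes for tRNA synthetases, which charge tRNA with amino acids, fell too. Of 20 cytosolic tRNA synthetases 17 fell (median log2 fold change -0.35), by 0.55 for Mars, 0.52 for Cars, 0.50 for Aars and 0.48 for Gars. Among amino acid transporters Slc7a5, with 2502, 2876 and 2936 against 1707, 1983 and 1753 (-0.61), and Slc7a1 (-0.56) were among 7 that fell, and Slc7a8 (1.04) was among 5 that rose, of 20 (2 to 3 without any control lung, deficient lung 2 or deficient lung 3). Several of these genes are known targets of the stress-responsive factor Atf4. Atf4 itself fell (log2 fold change -0.53, SE 0.097; limma adjusted p = 0.00424), as did its target Asns, which makes asparagine, from 1153, 1531 and 1461 to 757, 870 and 819 (-0.75). The list of Atf4 and Chop targets as a whole gave 3 higher and 3 lower of 16, with Atf3 (0.60), Ddit3 (0.44) and Vldlr (0.63) higher (1 higher with the block, under which Atf3 had an adjusted p of 0.0604 and Cth 0.0558, and 1 higher without control lung 1, control lung 2, deficient lung 1 or deficient lung 2). Of 18 genes of amino acid enzymes 5 fell, Got1 (-0.37) and Got2 (-0.31) of aspartate transamination among them (8 with the block, 3 without control lung 1 and 8 without deficient lung 1).

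The letters TGATGNAA, in which N is any base, form the core of the element that Atf4 binds with C/EBP factors. They were searched on both strands in the 250 bases before the RefSeq start of 10890 of the 14940 tested genes (72.9%) with a promoter entry, of which 1.93% held them. Among tRNA synthetases 3 of 12 genes with an entry (25.0%) held them, and among serine and one-carbon genes 0 of 13 did. The stretches around the matches in these 3 genes and in Asns are shown because the 4 genes fell together. Asns is in the Atf4 list, of which few members fell and of which 4 of 14 genes with an entry (28.6%) held the letters. The others were Atf3, which rose, and Chac1 and Nupr1, which did not pass. The stretches are written in the direction of the gene, with the match in capitals, from the GRCm38.p6 assembly. They lie at chr8:111033690-111033777 for Aars (plus strand), chr6:55037931-55038000 for Gars (plus strand), chr15:11399659-11399713 for Tars (minus strand) and chr6:7693210-7693272 for Asns (minus strand). In the first 3 the letters are read on the opposite strand. A match of letters is a description and not a bound site.
Aars: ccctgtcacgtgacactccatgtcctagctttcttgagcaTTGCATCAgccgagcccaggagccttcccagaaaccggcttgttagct
Gars: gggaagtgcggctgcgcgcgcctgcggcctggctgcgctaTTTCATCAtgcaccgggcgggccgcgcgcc
Tars: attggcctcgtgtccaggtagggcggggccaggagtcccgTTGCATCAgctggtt
Asns: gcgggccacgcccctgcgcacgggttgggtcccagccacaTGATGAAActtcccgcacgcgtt

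**Figure D3:**
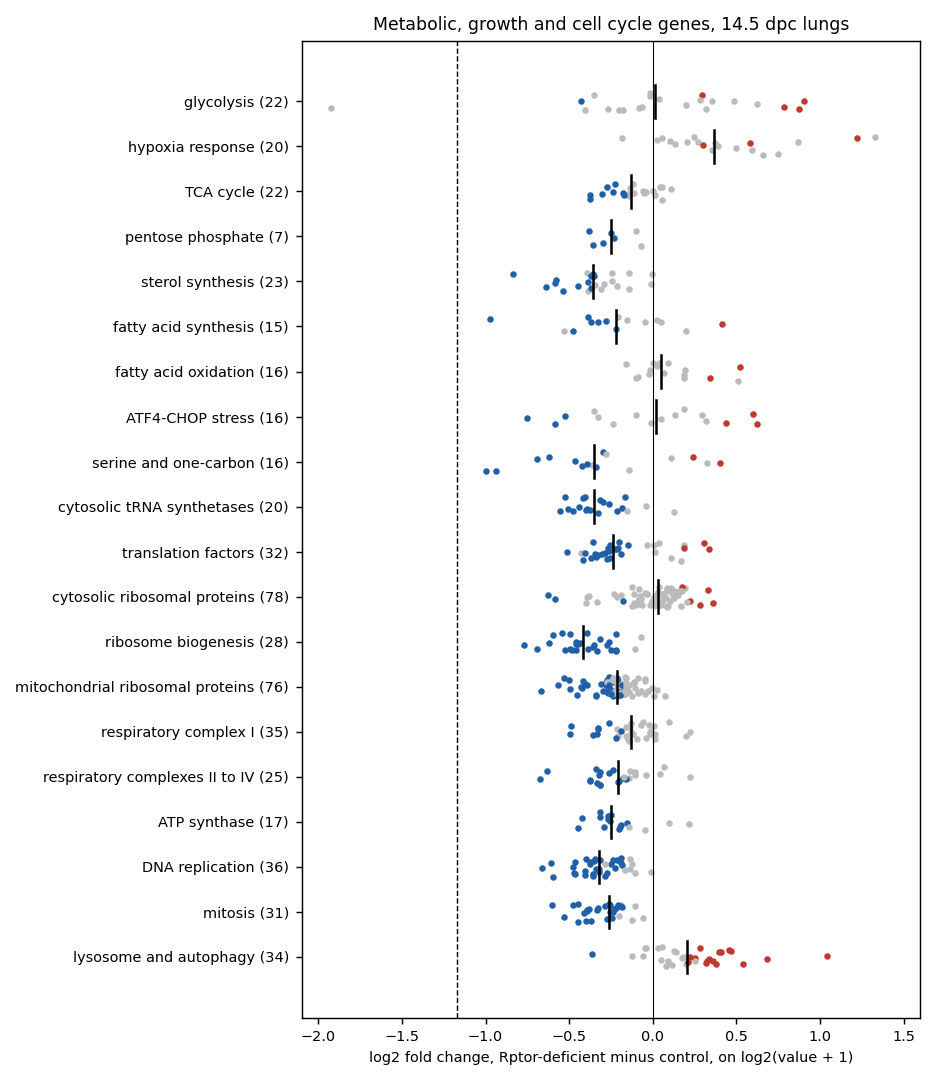
Log2 fold change (Rptor-deficient minus control, on log2(value + 1)) of every tested gene in 20 metabolic, growth and cell cycle lists, drawn as in the plot of cell types and with the reference at the dashed line. Ribosome biogenesis, tRNA synthetase, DNA replication and mitosis genes lie left of 0 with medians from -0.42 to -0.26, cytosolic ribosomal proteins centre on 0, and lysosomal genes lie to the right.

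Genes that build ribosomes fell, and those for the ribosomal proteins themselves did not. Of 28 ribosome biogenesis genes 26 fell and none rose (median log2 fold change -0.42). Rrp12, with 1646, 1513 and 1573 against 912, 966 and 897 (-0.77, SE 0.065), and the helicase Ddx21 (-0.69) fell most. Of 32 translation factors 21 fell, including Eif4e, which binds the mRNA cap (-0.51). Of 78 cytosolic ribosomal proteins, whose mRNAs are a known class controlled by mTORC1 at the level of translation, 5 rose and 3 fell with a median of 0.03 (9 and 5 with the block, 2 to 3 higher without control lung 2, control lung 3, deficient lung 2 or deficient lung 3, and 6 lower without deficient lung 1). Many processed copies of these genes exist in the genome, so that their reads are uncertain, and the part of such copies was not tested. Without control lung 3, 12 translation factors were lower.

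Mitochondrial genes that passed mostly fell, by small amounts. Of 76 mitochondrial ribosomal proteins 35 fell and none rose (median log2 fold change -0.21), and Mrpl16 had 940, 950 and 937 against 537, 599 and 643 (-0.67). The number was 21 to 23 when any 1 of the control lungs was left out. Of 17 ATP synthase genes 13 fell (median -0.25), of 25 genes of respiratory complexes II to IV 16 fell (median -0.21), led by cytochrome c, Cycs (-0.67), and Cox5a (-0.63), and of 35 complex I genes 9 fell (4 without control lung 3). Citrate synthase, Cs, had 9403, 9631 and 9699 against 7307, 7556 and 7265 (-0.38, SE 0.047) and was 1 of 8 lower genes among 22 of the TCA cycle (5 without control lung 1, control lung 3 or deficient lung 2). Of 27 genes of mitochondrial import and carriers 12 fell, the ADP/ATP carrier Slc25a5 among them (-0.71), and of 14 chaperones and proteases 6 fell, the chaperonin Hspd1 among them (-0.53). Other mitochondrial lists lay near the background of 18.2% lower. Of 16 genes that maintain mitochondrial DNA 2 fell, Pprc1 (-0.51) and Tfb2m (-0.35), and 1 rose, and of 16 assembly factors of cytochrome oxidase 3 fell and 1 rose. The 2 falls in the list of mitochondrial DNA maintenance became 1 without any 1 of the control lungs or without deficient lung 2. The single genes that rose in these lists, Esrra and Surf1, lost their calls in 5 and 4 of the 6 fits that each left out a lung.

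Of 23 sterol synthesis genes 11 fell and none rose, with all 23 fold changes below 0 and a median of -0.36, and Idi1 had 1007, 1067 and 814 against 490, 562 and 557 (log2 fold change -0.84, SE 0.11). Fdps fell too (-0.58). The number of lower sterol genes was 6 without control lung 1, control lung 2 or deficient lung 3. Of 15 fatty acid synthesis genes 7 fell, among them Acaca (-0.48) and Fasn (-0.39), and 1 rose, Acss2 (0.41), which lost its call in 2 of the 6 fits that each left out a lung. The number that fell was 3 to 4 without control lung 1, control lung 3, deficient lung 2 or deficient lung 3. Of 7 genes of the pentose phosphate pathway 5 fell, including Tkt (-0.38). Of 16 genes of fatty acid oxidation 2 rose, of which Cpt1a (0.52) admits fatty acids to mitochondria, and 5 rose with the block. Without control lung 2, control lung 3 or deficient lung 3 the number was 1, and Cpt1a passed in 1 of the 6 fits that each left out a lung (adjusted p up to 0.137).

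For glycolysis and the hypoxia response a single lung weighed heavily. Of 22 glycolysis genes 4 rose (2 without control lung 2) and 1 fell, and of 20 hypoxia genes 3 rose. Slc2a1, the glucose transporter, had 3084, 2782 and 2648 in controls and 7617, 2260 and 2740 in deficient lungs. Bnip3, a target of hypoxia-inducible factor, had 1020, 835 and 817 against 2636, 633 and 876. In both, deficient lung 1 was the highest of the 6 and the other deficient lungs lay below the highest control. The median log2 deviation of the hypoxia list from the control mean was 0.73 in deficient lung 1, 0.07 in deficient lung 2 and 0.09 in deficient lung 3. For glycolysis it was 0.40, -0.41 and -0.05. Without deficient lung 1, 5 glycolysis genes were higher and 8 lower, and 3 hypoxia genes were higher and 1 lower. With the replicate block the counts were 6 higher and 3 lower for glycolysis and 7 higher for hypoxia. Pfkfb3, which makes the activator of phosphofructokinase, rose in all deficient lungs (2561, 2380 and 2464 against 6540, 3683 and 4113; log2 fold change 0.91), as did Ndrg1 (376, 401 and 396 against 1329, 726 and 784; 1.22). Gapdh ranged from 316 to 6272 in controls and from 199 to 1948 in deficient lungs, and Eno1 had 7.92 to 16.95 reads in each lung, so that the counts of both genes are uncertain.

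**Figure D4:**
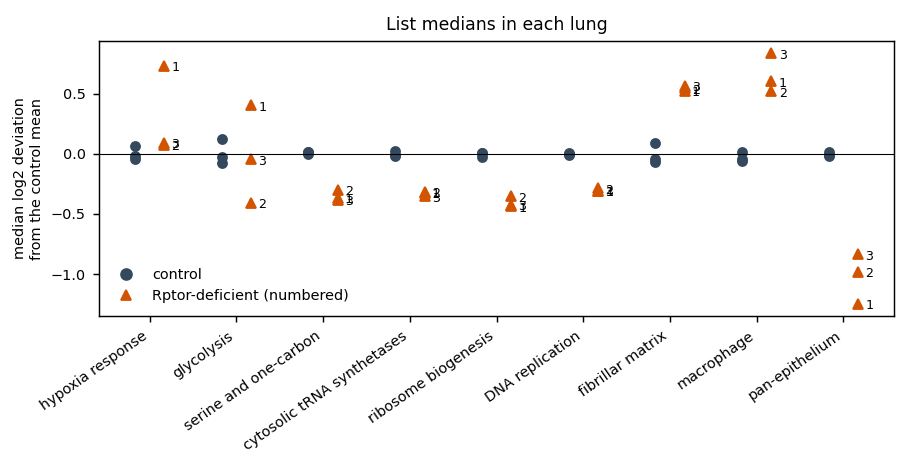
Median log2 deviation from the control mean of the tested genes of 9 lists in each control lung (circles) and each Rptor-deficient lung (triangles with the lung's number). Deficient lung 1 stands at 0.73 for the hypoxia response, apart from the other deficient lungs, whereas for ribosome biogenesis and DNA replication the 3 deficient lungs lie close together below the controls.

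Genes of the cell cycle fell. Of 36 DNA replication genes 29 fell and none rose (median log2 fold change -0.32), and of 31 mitosis genes 25 fell and none rose (median -0.26). Rrm2, which makes deoxynucleotides, had 5761, 6155 and 5834 normalised reads in controls and 3669, 4079 and 3989 in deficient lungs (-0.60, SE 0.058; limma adjusted p = 2.59e-04). Ube2c, an enzyme of the anaphase-promoting complex pathway, had 6924, 7469 and 6911 against 4627, 4845 and 4572 (-0.60, SE 0.054). Ccne1 (-0.66), Mcm10 (-0.48) and the kinase Ttk (-0.45) fell too. The groups did not overlap for 32 and 27 of the genes in these lists, against 50.3% of all genes tested. Without control lung 2, 19 replication genes were lower.

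The CCAAT box, searched with the letters CCAAT on both strands, was present in the 250 bases before the start of 35.8% of genes with a promoter entry. It was present in 20 of 27 mitosis genes (74.1%), 18 of 29 DNA replication genes (62.1%), 9 of 13 serine and one-carbon genes (69.2%), 6 of 12 tRNA synthetases (50%), 6 of 23 ribosome biogenesis genes (26.1%) and 6 of 25 translation factors (24%). Among other lists searched, it was present in 8 of 13 ATP synthase genes (61.5%), 3 of 5 airway secretory genes (60%), 9 of 18 genes of respiratory complexes II to IV (50%), 4 of 10 genes of ion and fluid transport (40%), 7 of 21 tight junction and polarity genes (33.3%), 2 of 7 pentose phosphate genes (28.6%), 3 of 12 alveolar type 1 genes (25%), 4 of 19 pan-epithelial genes (21.1%) and 1 of 10 alveolar type 2 genes (10%), so that lists in which most genes fell lay on both sides of the share over all genes. Stretches are shown for 4 genes named above or in the same lists, in the direction of the gene with the matches in capitals. Ccnb2, Ttk and Mcm10 hold the letters more than once, and Rrm2 holds them once. They lie at chr9:70421555-70421681 for Ccnb2 (minus strand), chr9:83834584-83834688 for Ttk (plus strand), chr2:5012792-5012929 for Mcm10 (minus strand) and chr12:24708164-24708248 for Rrm2 (plus strand), on GRCm38.p6.
Ccnb2: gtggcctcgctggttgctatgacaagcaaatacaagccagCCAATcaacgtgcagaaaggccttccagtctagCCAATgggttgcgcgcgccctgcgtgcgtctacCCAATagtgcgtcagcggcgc
Ttk: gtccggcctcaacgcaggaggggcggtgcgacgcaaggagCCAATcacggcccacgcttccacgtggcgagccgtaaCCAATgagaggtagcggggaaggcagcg
Mcm10: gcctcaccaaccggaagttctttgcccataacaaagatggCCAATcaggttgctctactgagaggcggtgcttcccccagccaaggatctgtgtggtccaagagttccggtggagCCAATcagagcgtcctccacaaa
Rrm2: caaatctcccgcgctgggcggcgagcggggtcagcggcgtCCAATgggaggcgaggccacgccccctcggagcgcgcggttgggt

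The other letters searched were CACCCCAC, the core of a sterol response element, and ACGTG, the core of a hypoxia response element. They stood before 2.83% and 21.4% of genes with an entry. ACGTG was held by 7 of 12 alveolar type 1 genes (58.3%) and 12 of 25 translation factors (48.0%), the highest shares among the lists searched, and by none of 14 endothelial and 14 macrophage genes, and the sterol list itself did not meet the rule for this description because fewer than 50 percent of its genes fell. With the replicate block 16 of its 23 genes fell, with edgeR 12 and without deficient lung 1 14, all of which are above that share.

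Among lysosomal genes that passed most rose, and among antioxidant genes that passed most fell. Of 34 genes of lysosomes and autophagy 16 rose and 1 fell, with a median log2 fold change of 0.21. Ctsd, a lysosomal protease, had 5860, 5719 and 6306 against 9105, 8843 and 10860 (0.68, SE 0.082), and Grn rose by 0.47. Macrophages carry many of these transcripts, and the summed level of the macrophage markers was 7864 to 8375 in controls and 10880 to 13670 in deficient lungs. Their part in the rise was not tested. Of 25 antioxidant genes 12 fell and 4 rose, with Gclc (-0.62), which starts glutathione synthesis, and Gsr (-0.56) lower and Hmox1 (0.74) higher. Without control lung 2, 7 of them were lower. Among 20 p53 targets and apoptosis genes 5 rose and 5 fell (2 without control lung 2). Bcl2l11, a promoter of apoptosis, had 1771, 1954 and 1887 against 3840, 3818 and 3894 (1.04, SE 0.056), Fas rose by 1.12, and Cdkn1a (0.27) and Mdm2 (-0.03), which p53 activates, did not pass.

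Lungs lacking Tfam, which maintains mitochondrial DNA, or Cox10, which is needed to assemble cytochrome c oxidase, were made with the same Cre. Each line had controls of its own, so that the effect of Rptor could be set against each. The study reports a slightly later onset of the branching defects in these lines than in Rptor-deficient lungs. All lines were sampled at the same age, so that the time since onset differed. Its part in the differences between lines was not tested. Of 14550 genes tested in all 3 lines, the effect of Rptor differed from that of Tfam for 1626 (11.2%) and from that of Cox10 for 1089 (7.48%) (limma, 6 groups in 1 model, adjusted p below 0.05). The first number was 844 to 1048 without Tfam control lung 2, Tfam-deficient lung 2 or 3 or Rptor control lung 2, and the second was 678 and 683 without Cox10 control lung 1 or 3 and 1815 without Cox10-deficient lung 3. Of 30 pan-epithelial genes 24 differed from Tfam and 20 from Cox10, and the median log2 fold change was -1.02 for Rptor, -0.30 for Tfam and -0.35 for Cox10. Of the 114 genes that fell beyond the reference 109 were tested in all lines, and the fall was deeper than in Tfam-deficient lungs for 79 and deeper than in Cox10-deficient lungs for 78. These genes were chosen for their fall in the same Rptor-deficient lungs, which favours a deeper fall there, so that the counts are a description. Sox2, which is among them, fell further by 2.57 than in the Tfam line and by 2.48 than in the Cox10 line on the log2 scale (limma adjusted p = 5.97e-04 and 7.84e-04).

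Cym was an exception, with a difference of -0.02 from Tfam and -0.51 from Cox10 (limma adjusted p = 0.981 and 0.553). It had 67.5 to 117 normalised reads in Tfam-deficient and 20.1 to 23.9 in Cox10-deficient lungs, under 1287 to 1601 and 216 to 319 in their controls. Atoh1 rose less in the other lines, by 4.46 for Tfam and 4.10 for Cox10 on the log2 scale, but the differences of 2.19 and 2.55 did not pass (limma adjusted p = 0.0963 and 0.0713). It had 116 to 144 reads in Tfam-deficient and 61.9 to 223 in Cox10-deficient lungs beside 2.03 to 8.0 and 2.02 to 10.9 in their controls. Of 16 serine and one-carbon genes 8 differed between Rptor and Tfam and 6 between Rptor and Cox10. The log2 fold change of Mthfd2 was -0.998 for Rptor, 1.01 for Tfam (difference -2.00, SE 0.14; limma adjusted p = 1.43e-07) and 0.10 for Cox10 (difference -1.10; limma adjusted p = 0.000131). That of Asns, of the ATF4 and CHOP list, was -0.75 for Rptor, 1.57 for Tfam (difference -2.32) and 0.60 for Cox10 (difference -1.35). Of 20 tRNA synthetases 14 differed between Rptor and Tfam and 8 between Rptor and Cox10, and of 28 ribosome biogenesis genes 18 and 6 did.

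**Figure D5:**
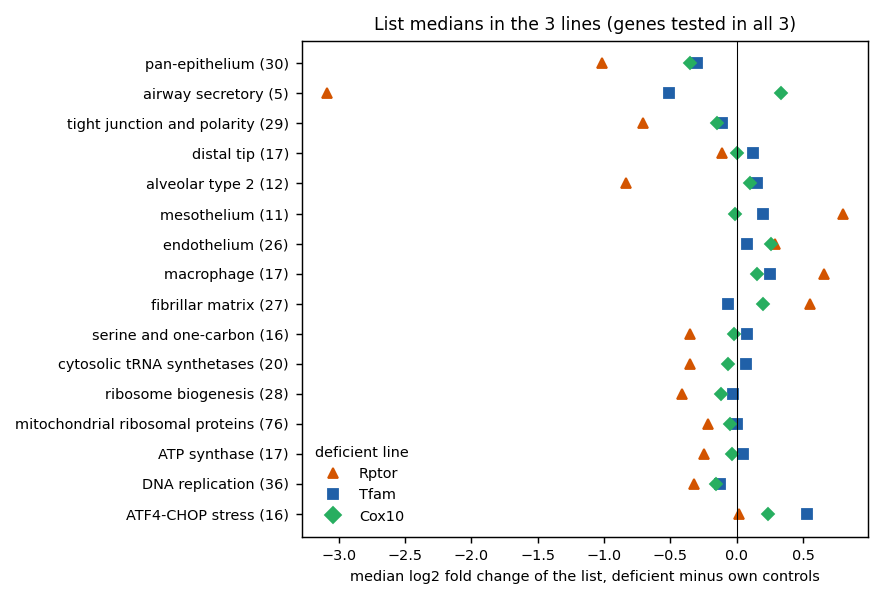
Median log2 fold change (deficient minus the line's own controls) of 16 gene lists in the Rptor (triangles), Tfam (squares) and Cox10 (diamonds) lines, over the genes tested in all 3 lines, with their number in brackets. The Rptor medians of the pan-epithelial and airway secretory lists lie furthest to the left, and for serine and one-carbon genes, tRNA synthetases and ribosome biogenesis the Rptor median is below those of the other lines.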

How the data were processed

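RNA-seq of whole embryonic lungs was analysed from the gene tables deposited by the authors, 1 for each line. The submitters' processing notes name Trim Galore, HISAT2, featureCounts, DESeq2 and the mouse build mm10, without versions, and the sources used here do not give the annotation. Per the file headers and values, the authors deposited a normalised signal for each sample, the read count of a gene divided by a size factor. All values above 0 were whole multiples of a step of 0.988 to 1.02 (within 0.01 of a read; 100% in each of the 6 lungs). The tables also hold the authors' fold changes and p-values, which were not used. For the Rptor line 4 rows shared symbols that had turned into dates, and they were kept.

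Values were analysed as log2(value + 1), which understates the change of low genes, in limma 3.58.1 (R 4.3.3; lmFit, then eBayes with a trend) with genotype as the only term. Genes with a value of at least 10 in at least 3 of 6 lungs were tested, two-sided, with Benjamini-Hochberg adjustment over all 14940. The design had foreseen a count test only as an alternative, and edgeR 4.0.16 and DESeq2 1.42.0 were run on the recovered whole reads. For falls beyond the reference, the mean log2 value of 3 genes was subtracted in each lung before the same fit. Lists are described by counts and medians, without a test of the list. Named genes were the 3 reference genes and Rptor, the defining genes of each list, up to 4 members of a list with the largest change that passed at a mean of at least 50, and the 10 largest rises, falls and falls beyond the reference. The lungs, gene lists and rules were chosen with earlier results of these data known. Further list members, and other lists' genes, were named as examples after their values were seen. Some genes that the rule picks are not reported here.

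Samples were grouped by title. Same-numbered control and deficient lungs deviated together from their group means (correlations of 0.221, 0.330 and 0.259, against at most 0.014 for other pairs). The numbers may thus pair the lungs, which the labels do not state. The main fit and the fits of differences between lines had no term for the number. Their p-values are unpaired, and fits with the number as a block are given as an alternative. Controls were littermates per the study's methods. That each sample came from a separate embryo is not stated, so that p-values measure the spread between these samples. No 2 lungs were 1 library deposited under separate names (chi-square per gene of at least 10.2, where sampling noise gives about 1). The fits were tested on simulated data. Gene positions are from GENCODE vM21 and promoters from RefSeq (GRCm38.p6).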

Additional observations from a re-analysis of the deposited data

Results flagged for a closer look

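Groups of 3 lungs were too small for a test of single outlying lungs. The results below were singled out because the effect of Rptor differed from that of Tfam, of Cox10 or of both by a test of the difference itself (limma, 6 groups in 1 model, adjusted p below 0.05), among the 10 largest rises and 10 largest falls tested in all 3 lines. Each value is the log2 fold change of the Rptor line minus that of the Tfam line and then minus that of the Cox10 line.

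The genes were chosen as the largest changes in the same Rptor-deficient lungs, which favours a larger change there, so that the directions below are a description. Among genes that rose, the differences were 3.70 and 3.35 for Rxfp1, 3.71 and 3.70 for Angptl7 and 2.93 and 3.03 for Dmrt2. They were 1.79 and 2.73 for C7, 1.58 and 1.97 for Chst8, 1.95 and 2.07 for Fam5b, 1.97 and 2.14 for Spock2 and 2.11 and 2.20 for Rgs4. Dsc3 differed from Cox10 (1.71; limma adjusted p = 0.00753) and did not pass against Tfam (0.98; limma adjusted p = 0.0907). Atoh1 and, among the falls, Cym passed neither test.

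Among genes that fell, the differences were -3.39 and -4.26 for Tinag, -3.77 and -5.04 for Scgb3a2, -3.06 and -3.59 for Elf5 and -2.90 and -2.95 for Gpx2. They were -2.65 and -2.42 for Cckar, -2.59 and -2.70 for Cldn10, -2.84 and -2.33 for Akr1c19 and -2.54 and -2.44 for Aqp4. Akr1c19 belongs to a family of similar genes, between which reads may have been split. Some of these genes started lower in Cox10 controls than in Rptor controls. Scgb3a2 had 27.23 to 49.97 normalised reads in Cox10 controls and 232 to 264 in Rptor controls. The ranges were 105.9 to 195.5 and 221 to 491 for Elf5, and 102.9 to 154.9 and 360 to 495 for Tinag. Those of Cckar, 1392 to 1509 and 1352 to 1516, overlapped. A lower start leaves less room to fall, and its part in the differences was not tested.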

How the results depend on the processing

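The number of genes that differed between Rptor-deficient and control lungs was 5202 and lay between 4505 (Xist as a covariate) and 5936 (all 18 samples in 1 fit) over the alternatives of scaling, filter, pseudocount, covariate and tool. These included 5209 by edgeR, 5151 by DESeq2 and 5181 by limma voom on whole reads, of which voom was chosen after seeing the data. With the replicate number as a block the number was 5768. Among genes named by the rule the block changed no call other than those given with the results. Calls of genes named as examples could also change, as for Msln. An adjusted p below 0.01 left 2719 genes and a log2 fold change of at least 1 left 788, since both ask for more. Leaving out 1 lung in turn gave 3597 to 5336. The 114 falls beyond the reference became 215 with Epcam alone, 197 with Nkx2-1 alone, 37 with Cdh1 alone and 72 with a mean of at least 50, and 87 to 146 when a lung was left out. The effect minus that of Tfam gave 844 to 2377 genes and minus that of Cox10 678 to 1815 when 1 of the 18 samples was left out (2318 and 1456 with the block). Lists in which at least 50 percent of the genes passed in 1 direction numbered 23 (31 with the replicate block), and 16 to 27 when a lung was left out. Of 4225 refits of named genes 4043 kept direction and side of the threshold, 163 lost the call, 11 gained one and 8 reversed. The reversals were in genes that did not pass. Alb was 0.502 with Xist, 0.612 with edgeR, 0.613 with DESeq2 and -1.08 to 0.728 when a lung was left out. In the same fits Sox10 ranged from -0.0678 to 0.690 and Myh6 from -0.00294 to 0.984. The cause was not tested. Median-of-ratios scaling was not run, since its factors did not differ between lungs. Depth limited genes of few reads, such as Cyp2f2, by counting error.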
